A study of Macaca mulatta with 43 samples.

Results

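The animals described here were the ethanol drinkers of cohorts 7a and 7b, 13 of the 43 rhesus macaques of the series, with 8 drinkers from cohort 7a and 5 from cohort 7b. They were chosen by their labels alone, as every ethanol-drinking animal of either cohort. All were adult males, individually housed, that were brought to drink by schedule-induced polydipsia and for 1 year could then choose on each day between water and an ethanol solution of 4% (w/v), offered for 22 h. Gene expression was measured in medial prefrontal cortex (PFC), with RNA from 3 areas of anterior cingulate and subgenual cortex pooled within each animal and 1 Affymetrix Rhesus Macaque array per animal. The controls of the same cohorts, 4 in 7a and 2 in 7b, drank water and a maltose dextran solution that matched the calories of a drinker, and are labelled water control. RNA of both cohorts was extracted with the All Prep kit, and their arrays were processed after those of cohorts 4 and 5. Drinking was voluntary, so the dose was not set and differed between animals. Cohort stands for everything that differed between the 2 sets of animals, and by the study's animal table every 7b animal was older than every 7a animal, so age and cohort cannot be told apart.

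Medial PFC takes part in the control of reward seeking and of drinking. It holds glutamatergic projection neurons and GABAergic interneurons among astrocytes, oligodendrocytes, microglia and a dense capillary bed, and a piece of tissue gives the summed RNA of all of them. In such bulk samples, fewer cells of a type and less RNA per cell cannot be told apart. Cortical markers were present in both sets of drinkers. NRGN, a postsynaptic protein of projection neurons, had a mean log2 value of 12.27 in 7a and 12.11 in 7b. GFAP, the intermediate filament of astrocytes, had 12.37 and 12.46, and MBP, a myelin protein, had 12.67 and 12.52.

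Values are Robust Multi-array Average (RMA) expression values on the log2 scale, so that a difference of 1 is a doubling. Differences are given as cohort 7a minus cohort 7b, with the standard error (SE) of the limma fit and its Benjamini-Hochberg adjusted p over 23815 probesets of 13705 genes. In drinkers, 608 probesets (2.55% of those tested) passed an adjusted p of 0.05. Of these, 387 (1.63%) were higher in cohort 7a and 221 (0.928%) were lower. They belonged to 363 genes and 206 genes respectively, with 2 genes in both sets. The differences were modest, with a median size of 0.41 among the 608, and 1 probeset exceeded 1. In 344 of the 608 probesets, 233 higher and 111 lower, no 7a drinker overlapped with any 7b drinker, against 519 (2.18%) of all tested probesets at any p. Centering each array on its median moved the share of higher calls from 63.7% to 44.0%, and repeating the quantile normalization over the 13 arrays gave 55.3%, while the median of all tested probesets was 0.01 as deposited, -0.02 after centering and 0.02 after normalization.

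The arrays had been run in batches, and drinkers of both cohorts shared 3 of the 5 batches that held them. With batch as a block, limma called 0 of the 23815 probesets at an adjusted p of 0.05, the lowest adjusted p was 0.123, and 2664 had an unadjusted p under 0.05, against 4603 without the block. With the block in a fit of the 19 arrays of both cohorts, controls included, 45 were called (30 higher and 15 lower), 40 of them among the 608. RPL10A (adjusted p = 0.0255) was in that set, as were 9 of the 20 genes described next, among them MRC1 (adjusted p = 0.00735) and CTSZ (adjusted p = 0.0196). Every one of the 608 probesets kept its sign with the block over 13 arrays, and their median difference was 0.959 of that without it. Their median SE rose from 0.09 to 0.12. The 608 had been chosen by their difference in these same arrays, so the kept signs are no test of batch. The contrast could be taken within those 3 batches, with 1 drinker against 1 in batches 4 and 6 and 1 against 3 in batch 8. The direction was the same in all 3 batches for 577 of the 608 probesets (94.9%), against 31.8% of all tested probesets, as a description of the same animals that gave the calls. For the 344 called probesets whose drinkers did not overlap, it could not have been otherwise.

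**Figure D1:**
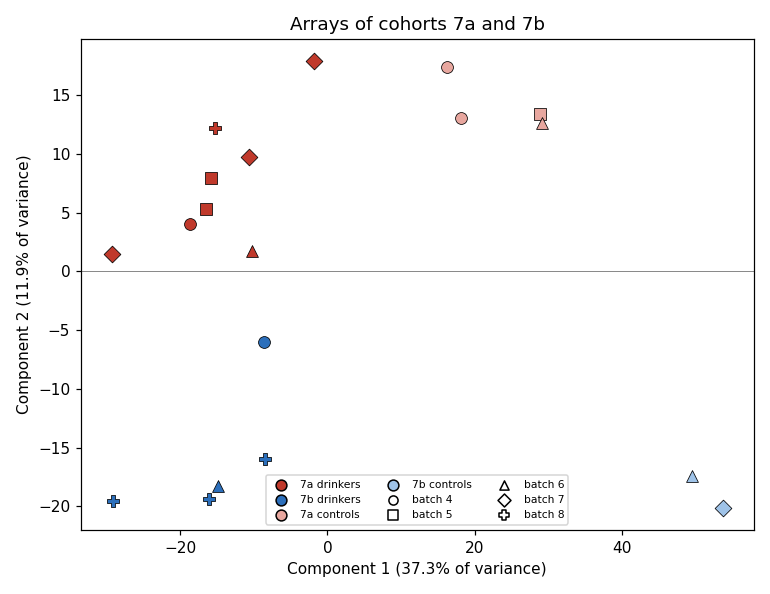
The first 2 principal components of the 19 arrays of cohorts 7a and 7b over the tested probesets, 1 point per animal, with component 1 (37.3% of the variance) on the x axis, component 2 (11.9%) on the y axis, colour for the group and symbol for the batch. Along component 2 the 7a animals lie at 1.45 or above and the 7b animals at -6.03 or below, in drinkers and in controls.

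The 20 genes described next were the 10 with the largest differences in each direction among called probesets whose drinkers did not overlap, so the separation of the 2 sets of drinkers follows from the choice. Differences beyond the tenth of these were also called in 7 probesets that were higher and 10 that were lower in 7a but overlapped. They included PREX2 (0.92, adjusted p = 0.0241), an exchange factor of the Rac GTPase, EMSY (0.87, adjusted p = 0.0232), ATXN7 (-0.83, adjusted p = 0.0342), a subunit of a histone acetylase complex, and PABPN1 (-0.77, adjusted p = 0.0284), a nuclear poly(A)-binding protein.

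The gene with the largest difference among those called was CTSZ, which encodes cathepsin Z, a lysosomal cysteine protease of macrophages and microglia. Its log2 values in the 8 drinkers of 7a were 7.30, 7.50, 8.14, 7.72, 7.19, 7.35, 7.57 and 7.71. In the 5 drinkers of 7b they were 6.65, 6.28, 6.13, 6.07 and 5.89. The lowest 7a drinker thus stood above the highest 7b drinker, and the difference was 1.36 (SE 0.15, adjusted p = 0.00101, limma). Within batches 4, 6 and 8 the difference was 0.65, 1.29 and 1.68. Control animals of 7a had 7.36 to 8.32 and those of 7b 7.34 to 7.50, which overlapped, with a difference of 0.41 (adjusted p = 0.30, limma). It was therefore the 7b drinkers that held the low values among the 4 groups.

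HIRA encodes a histone chaperone that deposits a variant histone outside DNA replication. The 7a drinkers had log2 values of 9.42, 9.37, 9.63, 9.48, 8.99, 9.45, 9.46 and 9.33, and the 7b drinkers had 8.88, 8.67, 8.18, 8.41 and 8.05. The groups did not overlap, although the 7a animal at 8.99 stood close to the highest 7b animal, and the difference was 0.95 (SE 0.13, adjusted p = 0.00376). CDH20 encodes a cadherin, a calcium-dependent adhesion protein of the cell surface. Its log2 values were 6.22, 6.16, 6.20, 6.38, 5.68, 6.09, 6.45 and 6.42 in 7a drinkers and 5.31, 5.67, 5.34, 5.28 and 4.99 in 7b drinkers. The difference was 0.88 (SE 0.13, adjusted p = 0.00509), with the lowest 7a value of 5.676 only just above the highest 7b value of 5.672. In controls neither gene passed the test, with differences of 0.33 for HIRA (adjusted p = 0.27) and 0.07 for CDH20 (adjusted p = 0.876).

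TPBG encodes trophoblast glycoprotein, a membrane protein that inhibits Wnt signalling. Its log2 values were 8.61, 8.27, 8.01, 8.86, 8.41, 8.80, 8.02 and 8.25 in 7a drinkers and 7.55, 7.70, 7.67, 7.26 and 7.69 in 7b drinkers. All 7a animals were above all 7b animals, by 0.83 on average (SE 0.14, adjusted p = 0.0107), and in controls 7a was higher by 0.57 (adjusted p = 0.0643). ZFYVE9 encodes an anchor protein that brings SMAD proteins to the TGF-beta receptor. The 7a drinkers had 9.29, 9.36, 9.57, 9.51, 9.13, 9.44, 9.43 and 9.34, and the 7b drinkers had 8.87, 8.61, 8.34, 8.59 and 8.48. The groups were separate, with a difference of 0.81 (SE 0.09, adjusted p = 0.00114). ZFYVE9 had 3 further probesets, and all 3 had the same sign but did not pass the test.

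Of the other increases among these 20 genes, MRC1 encodes the mannose receptor of perivascular macrophages. It ranged from 10.34 to 10.63 with a median of 10.39 in 7a drinkers and from 9.37 to 9.87 with a median of 9.63 in 7b drinkers, a difference of 0.79 (SE 0.09, adjusted p = 0.00101). MRC1 was also higher in 7a controls, by 0.46 (adjusted p = 0.0152), while its second, dimmer probeset differed by -0.13 in drinkers (adjusted p = 0.629). MAN2B2, a lysosomal alpha-mannosidase, was higher by 0.79 (SE 0.13, adjusted p = 0.0107) in drinkers and by 0.00 in controls. EPOP, a protein associated with the Polycomb repressive complex, was higher by 0.76 in drinkers (SE 0.12, adjusted p = 0.00601) and by 0.73 in controls (adjusted p = 0.00556). The RNA helicase DDX24 differed by 0.75 (adjusted p = 0.00511), but of its 2 other probesets 1 had the opposite sign and neither passed the test. The uncharacterised LOC703425 differed by 0.73 (adjusted p = 0.00511).

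**Figure D2:**
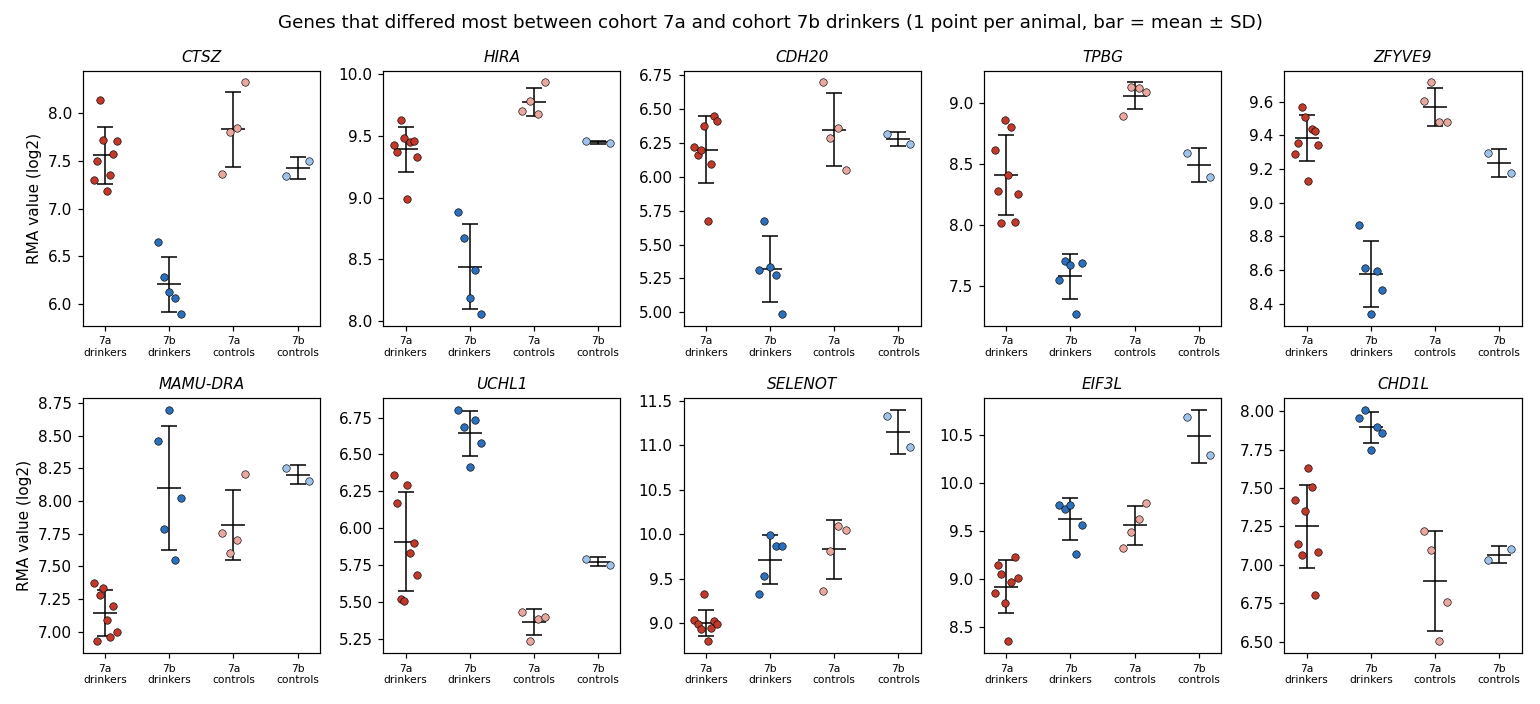
Log2 RMA values of 5 genes with increases (top row) and 5 with decreases (bottom row) in cohort 7a drinkers, the largest among called probesets whose drinkers did not overlap, 1 point per animal, with the mean and SD of each group, for 8 and 5 drinkers and 4 and 2 controls. The drinkers are separate by the choice of genes, and the controls overlap for some (CTSZ and CDH20) and not for others (SELENOT and EIF3L).

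The largest decrease among called probesets was in MAMU-DRA, the alpha chain of a class II major histocompatibility complex (MHC) molecule, which presents peptides on microglia and macrophages. Its log2 values were 7.37, 6.92, 7.28, 7.33, 7.09, 6.96, 7.20 and 7.00 in 7a drinkers and 8.46, 7.78, 8.70, 7.55 and 8.02 in 7b drinkers. Every 7a drinker was below every 7b drinker, by 0.96 on average (difference -0.96, SE 0.16, adjusted p = 0.00943). A second probeset fell by 0.72 (adjusted p = 0.0136), and the third, near the detection limit at 3.76 and 4.35, differed by -0.60 (adjusted p = 0.151). In controls the difference was -0.38 (adjusted p = 0.32), and the 7a and 7b ranges of 7.60 to 8.21 and 8.15 to 8.25 overlapped.

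UCHL1 encodes a ubiquitin hydrolase that is abundant in neurons. The probeset with the largest difference had log2 values of 6.36, 6.17, 5.52, 5.50, 6.30, 5.83, 5.90 and 5.68 in 7a drinkers and 6.80, 6.69, 6.42, 6.73 and 6.58 in 7b drinkers. The groups did not overlap, with a difference of -0.73 (SE 0.14, adjusted p = 0.016), and 2 brighter probesets differed by -0.49 (adjusted p = 0.0311) and -0.23 (adjusted p = 0.104). SELENOT encodes a selenoprotein of the endoplasmic reticulum. Its values were 9.03, 8.99, 8.94, 9.32, 8.79, 8.95, 9.02 and 8.98 in 7a drinkers and 9.33, 9.53, 9.99, 9.86 and 9.86 in 7b drinkers. All but 1 of the 7a drinkers lay at 9.03 or below, the exception at 9.32 came up to the lowest 7b drinker without overlap, and the difference was -0.71 (SE 0.11, adjusted p = 0.00575). The controls were further apart, at 9.36 to 10.09 in 7a and 10.98 to 11.33 in 7b, a difference of -1.33 (adjusted p = 0.000199). A brighter SELENOT probeset differed by only -0.21 in drinkers (adjusted p = 0.141).

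EIF3L encodes a subunit of a translation initiation factor. The 7a drinkers had log2 values of 8.85, 9.15, 9.05, 8.75, 8.35, 8.96, 9.22 and 9.01, and the 7b drinkers had 9.77, 9.73, 9.77, 9.26 and 9.56. All 7a drinkers were lower, with a difference of -0.70 (SE 0.13, adjusted p = 0.0144), and in controls it was -0.93 (adjusted p = 0.00354). CHD1L encodes a chromatin remodeler that acts in DNA repair. Its values were 7.42, 7.13, 7.07, 7.35, 7.63, 7.51, 6.80 and 7.09 in 7a drinkers and 7.96, 8.01, 7.75, 7.90 and 7.86 in 7b drinkers. The groups were separate, with a difference of -0.64 (SE 0.12, adjusted p = 0.0137). All 3 other CHD1L probesets had the same sign, of which 1 passed the test, and the controls differed by -0.17 (adjusted p = 0.644).

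Among the remaining decreases were 2 genes for RNA-binding proteins, CIRBP, which is induced by cold, and HNRNPDL, a splicing regulator. Both fell by 0.64 in 7a drinkers (SE 0.12 and 0.11, adjusted p = 0.0136 and 0.0107), and all 3 further probesets of each gene had the same sign. Of these, 1 passed the test for CIRBP and none for HNRNPDL, whose brightest probeset differed by -0.09 (adjusted p = 0.767). GAD2 encodes an enzyme of GABA synthesis in interneurons. It ranged from 8.10 to 8.85 in 7a drinkers and from 8.89 to 9.63 in 7b drinkers, a difference of -0.63 (SE 0.14, adjusted p = 0.0332). The controls of both cohorts lay lower, at 6.50 to 7.14 and 6.73 to 7.01, and differed by 0.08 (adjusted p = 0.863). A dimmer GAD2 probeset differed by -0.28 in drinkers (adjusted p = 0.183) and by 0.30 in controls. The call for GAD2 was lost without any of 5 single drinkers (adjusted p up to 0.0686), whereas the other 19 of the 20 genes kept theirs without each animal in turn. ACTR10, a subunit of the dynactin motor complex, differed by -0.63 (adjusted p = 0.0107) and SPCS2, a subunit of signal peptidase, by -0.61 (adjusted p = 0.00693). Both were also lower in 7a controls, by -0.75 (adjusted p = 0.00355) and -0.88 (adjusted p = 0.00067). A brighter ACTR10 probeset differed by -0.19 in drinkers (adjusted p = 0.127).

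The controls allowed the same cohort contrast in animals that had not drunk. In a fit of the 19 arrays of both cohorts, 3075 probesets (12.9%) differed between 4 control animals of 7a and 2 of 7b, with 1162 higher and 1913 lower in 7a. The same fit called 1047 probesets in drinkers, whereas the 608 came from the fit of 13 arrays. Of the 608 probesets called in drinkers, 523 (86.0%) had the same sign in controls, against 59.6% of all tested probesets. The share was 84.8% for those higher in 7a drinkers (328 probesets) and 88.2% for those lower (195 probesets). Of the 608, 246 were also called in controls, which is 40.5% of the drinkers' calls and 8.0% of the controls' calls, and 242 of the 246 had the same direction in both. The count in controls fell to 799 without control animal 37 and to 1595 without control animal 38, the only controls of 7b.

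A test of the difference between drinkers' and controls' cohort contrasts called 614 probesets (2.58%), 433 with a higher and 181 with a lower 7a minus 7b difference in drinkers, and 43 of these were among the 608. The count was 129 without control animal 25, 267 without control 26, 31 without control 37 and 114 without control 38. With the batch block 0 were called by limma, with 2330 at an unadjusted p under 0.05. A dim EMSY probeset with overlapping drinkers was among the 614 (1.19, adjusted p = 0.0493). The other EMSY probesets were not (adjusted p = 0.319 to 0.982). None of the 20 genes described above was called in this test. An effect called in drinkers and not in controls, such as that of CTSZ (adjusted p = 0.0781 for the difference between the contrasts) or MAN2B2 (adjusted p = 0.0584), was therefore not shown to differ between them.

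**Figure D3:**
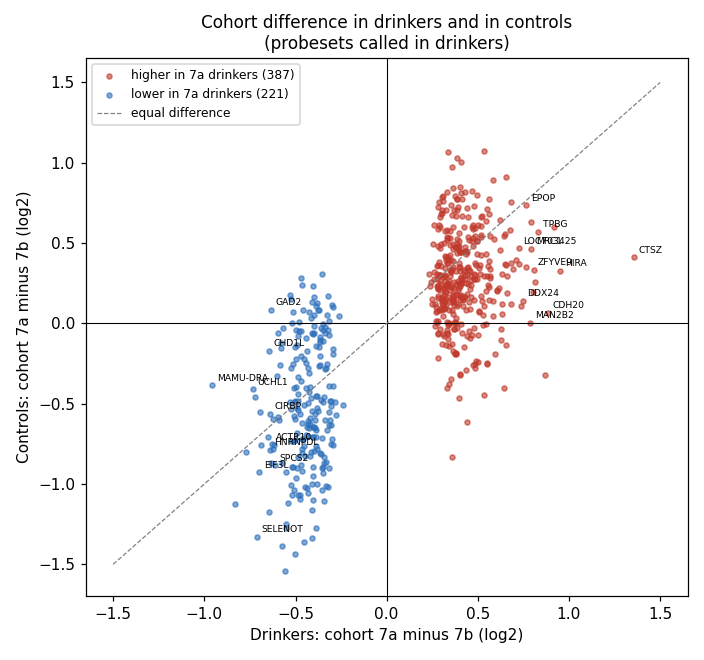
The 7a minus 7b difference on the log2 scale in drinkers (x axis, 8 against 5 animals) and in controls (y axis, 4 against 2 animals) for the 608 probesets called in drinkers, with the 20 genes of largest difference named. Most points, 523 of 608, lie in the quadrants of equal sign, and the gap around 0 on the x axis comes from the selection by the drinkers' test.

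Gene lists for cell types and pathways were then read in drinkers with 1 probeset per gene, the brightest. Over all 13705 genes so represented, 1.79% were called higher and 0.81% lower, 53.1% lay above 0, and the median was 0.01. The widest shift toward 7a was in endothelium, the cells that line blood vessels. The median difference of its 10 measured genes was 0.31 in drinkers, 9 of 10 lay above 0, and 1 passed the test. That gene was TEK, the angiopoietin receptor, which rose by 0.40 (SE 0.09, adjusted p = 0.0338), while its dimmer probeset differed by -0.05 (adjusted p = 0.82). The log2 values of the first ranged from 7.31 to 7.79 in 7a drinkers and from 7.02 to 7.36 in 7b drinkers, which overlapped. In controls TEK differed by -0.32 in the first probeset and by -0.08 in the dimmer one. In the first, TEK was the 1 endothelial gene whose cohort difference differed between drinkers and controls (0.72, adjusted p = 0.0241). The tight junction gene CLDN5 differed by 0.38 (adjusted p = 0.0668), the adhesion gene PECAM1 by 0.25 (adjusted p = 0.0853) and the glucose transporter gene SLC2A1 by 0.44 (adjusted p = 0.0878), none past the test in the probeset used for the list. A dimmer PECAM1 probeset rose by 0.50 (adjusted p = 0.0139), and the dimmer SLC2A1 probeset differed by -0.04 (adjusted p = 0.871). The mean log2 value of the list was 7.14 to 7.57 in 7a drinkers and 6.90 to 7.12 in 7b drinkers, and 7.21 to 7.66 and 7.39 to 7.42 in the controls. The median in controls was 0.07, with 6 of 10 genes above 0.

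The 6 measured genes of mural cells and smooth muscle, which wrap vessels, had a median of -0.36, with 5 below 0 and none past the test (limma, lowest adjusted p = 0.412). The contractile genes TAGLN (-0.46), CNN1 (-0.23), MYL9 (-0.31) and ACTG2 (-0.43) had the smallest p. The median in drinkers rested on 1 animal, being -0.01 without 7b drinker 39. In controls the median was -0.35, with 5 of 6 genes below 0 and none past the test. The list mean was 6.80 to 7.12 in 7a drinkers and 6.79 to 8.44 in 7b drinkers. Markers of other tissues that a cortical sample could hold overlapped between the drinkers. For choroid plexus and ependyma the list means were 6.06 to 6.29 in 7a drinkers and 6.07 to 6.22 in 7b drinkers (6 genes). For blood they were 5.21 to 5.67 and 5.53 to 5.67 (3 genes), and for meninges and fibroblasts 7.78 to 8.17 and 7.39 to 8.41 (7 genes). None of these 16 genes passed the test.

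Immediate early genes are transcribed within minutes of neuronal activity. Of 12 measured, 11 were above 0 in 7a drinkers, the median was 0.26, and 1 passed the test. EGR4, a zinc finger transcription factor, rose by 0.48 (SE 0.12, adjusted p = 0.0483), with 7.39 to 8.07 in 7a drinkers and 7.04 to 7.57 in 7b drinkers, which overlapped. ARC (0.39, adjusted p = 0.0504), IER2 (0.23, adjusted p = 0.0553) and EGR2 (0.54, adjusted p = 0.0568, its other probeset -0.13) did not pass. Controls had a median of 0.18, with 9 of 12 above 0. The list mean was 8.21 to 8.55 in 7a drinkers and 8.05 to 8.22 in 7b drinkers.

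Cytosolic ribosomal proteins build the ribosome outside mitochondria. Of 34 measured genes, 29 were below 0 in 7a drinkers, with a median of -0.19, and 3 passed the test, all lower. RPL10A, of the large subunit, ranged from 11.53 to 11.78 in 7a drinkers and from 11.98 to 12.26 in 7b drinkers. The groups did not overlap, and the difference was -0.48 (SE 0.07, adjusted p = 0.005). RPL26 fell by 0.31 and RPS18, of the small subunit, by 0.35 (both adjusted p = 0.0306), again without overlap, but the dimmer RPL26 probeset differed by 0.24 (adjusted p = 0.0795). RPL24 differed by -0.35 (adjusted p = 0.0548). The list mean was 11.21 to 11.30 in 7a drinkers and 11.34 to 11.49 in 7b drinkers, and 11.35 to 11.48 and 11.73 to 11.79 in controls. The same list had a median of -0.38 in controls, with 30 of 34 below 0, 17 called lower and 1 called higher. For 3 of its genes the cohort difference differed between drinkers and controls, against 2.58% of all tested probesets. Of all 23815 tested probesets, 1913 were called lower in controls and 1162 higher.

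The respiratory chain of mitochondria showed a smaller shift. Of 40 measured genes, 28 were below 0 in 7a drinkers, the median was -0.08, and 3 passed the test, all lower. UQCRC2, a core subunit of complex III, fell by 0.50 (SE 0.11, adjusted p = 0.0314). The ATP synthase genes ATP5G1 and ATP5PO fell by 0.43 and 0.31 (both adjusted p = 0.0421), and the cytochrome oxidase gene COX7B differed by -0.40 (adjusted p = 0.0507). In controls the median was -0.34, with 19 genes called lower and 1 called higher. Of all 23815 tested probesets, 1913 were called lower in controls and 1162 higher. Of 23 splicing factors, 16 were below 0 and 3 passed the test. RBM25 fell by 0.69 (SE 0.14, adjusted p = 0.0175), RBM5 by 0.32 (adjusted p = 0.0358) and LUC7L3 by 0.30 (adjusted p = 0.0441), while SRSF6 differed by -0.36 (adjusted p = 0.0688) and fell by 0.39 in its other probeset (adjusted p = 0.0332). RBM25 had a second probeset of the opposite sign, and of the 7 other LUC7L3 probesets 4 had the same sign, of which 1 passed the test. The median of this list was -0.12 in drinkers and -0.16 in controls.

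**Figure D4:**
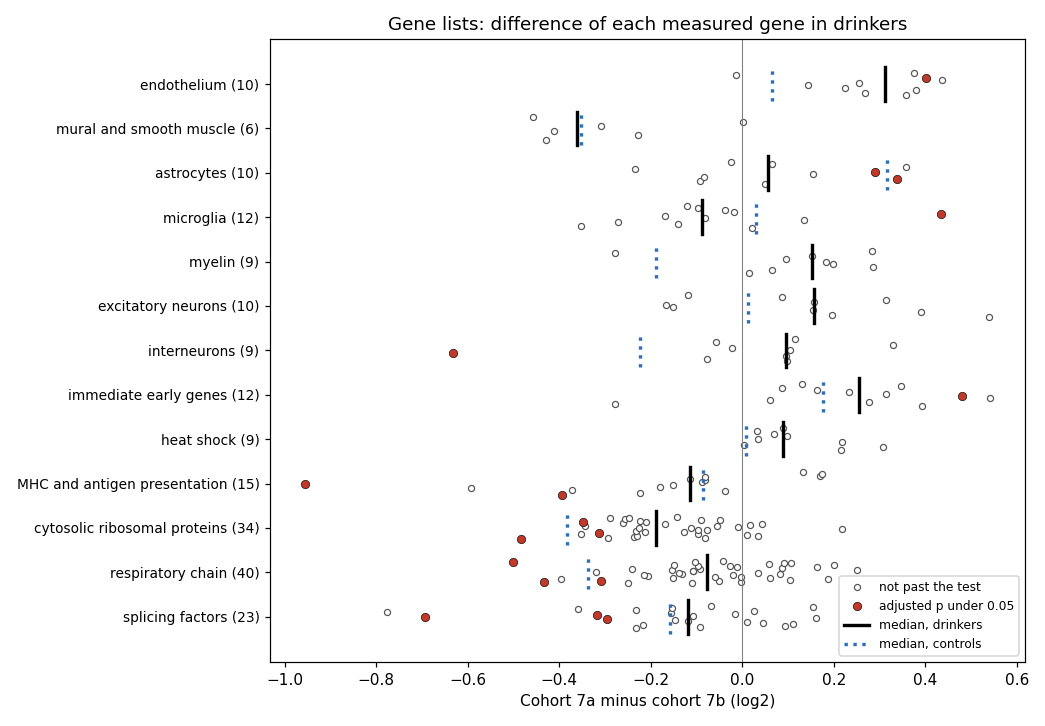
The 7a minus 7b difference on the log2 scale (x axis) in drinkers for each measured gene of 13 lists (rows, number of genes in brackets), with filled points for an adjusted p under 0.05, a solid bar for the median in drinkers and a dotted bar for the median in controls. Endothelium (median 0.31) and immediate early genes (0.26) lie mostly to the right and cytosolic ribosomal proteins (-0.19) mostly to the left, while most single genes did not pass the test.

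Immune genes moved in both directions. Of 15 measured genes of MHC and antigen presentation, 12 were below 0, with a median of -0.11, and 2 passed the test. Beside MAMU-DRA these included B2M, the light chain of class I molecules, which fell by 0.39 (SE 0.09, adjusted p = 0.0332) and by 0.48 in its second probeset (adjusted p = 0.0425). TAP1, a peptide transporter, differed by 0.17 (adjusted p = 0.207) and CD74, the class II invariant chain, by -0.22 (adjusted p = 0.219). Of 12 microglial genes, 9 were below 0 and 1 passed, in the other direction. This was ITGAM, an integrin of myeloid cells, which rose by 0.43 (SE 0.10, adjusted p = 0.0338). The complement genes C1QA (-0.35, adjusted p = 0.247) and C1QC (-0.27, adjusted p = 0.259) and the chemokine receptor gene CX3CR1 (-0.17, adjusted p = 0.317) did not pass. The mean of the microglial list was 7.50 to 7.80 in 7a drinkers and 7.55 to 7.81 in 7b drinkers. None of 20 interferon-induced genes passed. Of 19 acute phase and inflammation genes 1 did, CEBPB, a transcription factor, which rose by 0.36 (SE 0.07, adjusted p = 0.0153) without overlap, at 9.99 to 10.28 in 7a drinkers and 9.61 to 9.81 in 7b drinkers.

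Most neuronal and glial marker genes did not pass the test. Of all 13705 genes with 1 probeset each, 1.79% were called higher and 0.81% lower. Of 10 astrocyte genes, 6 were above 0 and 2 passed the test. FGFR3, a growth factor receptor, rose by 0.34 (SE 0.07, adjusted p = 0.0253) and NDRG2 by 0.29 (SE 0.07, adjusted p = 0.0465), both without overlap between the sets of drinkers. Their dimmer probesets did not show these increases. The difference was 0.01 for FGFR3 (adjusted p = 0.975) and 0.03 and 0.02 for NDRG2 (adjusted p = 0.922 and 0.931). The glutamate transporter gene SLC1A2 differed by 0.36 (adjusted p = 0.0541) and S100B by -0.23 (adjusted p = 0.0825). Of 9 interneuron genes only GAD2 passed. PVALB (0.33, adjusted p = 0.294), LHX6 (0.10, adjusted p = 0.516) and GAD1 (0.10, adjusted p = 0.529) had the opposite sign, although the 2 dimmer GAD1 probesets differed by -0.29 and -0.34 (adjusted p = 0.244 and 0.163). For PVALB, which encodes the calcium buffer of fast-spiking interneurons, the controls differed by -1.04 (adjusted p = 0.00734), and the difference between the contrasts was 1.37 (adjusted p = 0.0241). None passed among 10 genes of excitatory neurons (median 0.16), 9 of myelin (0.15), 7 of oligodendrocyte precursors (0.08), 12 of synaptic vesicles (0.09), 6 GABA receptor genes (0.07), 8 glutamate receptor genes (-0.04) or 11 genes of ethanol and aldehyde oxidation (0.04). The myelin median was 0.05 with the batch block and 0.05 to 0.39 without 1 drinker, and the glutamate receptor median was 0.12 with the block and -0.05 to 0.06 without 1 drinker.

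Single genes passed in 4 further lists. ZBTB16, a glucocorticoid-induced transcription factor, rose by 0.47 (SE 0.12, adjusted p = 0.0455) in drinkers and by 0.83 in controls (adjusted p = 0.00234). TEF, a clock output factor, rose by 0.35 (SE 0.07, adjusted p = 0.016) in drinkers and by 0.53 in controls (adjusted p = 0.00234), with the lowest 7a drinker and the highest 7b drinker both at 10.22. SLC2A3, the neuronal glucose transporter gene in the list of hypoxia and glycolysis, rose by 0.28 (SE 0.06, adjusted p = 0.0332), and PDIA3, a protein-folding enzyme of the endoplasmic reticulum, by 0.39 (SE 0.10, adjusted p = 0.0498). None passed among 9 heat shock genes, 4 metallothioneins, 22 proteasome genes or 15 genes of cholesterol synthesis.

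Of the list members that passed and were not among the genes of largest difference, 20 in all, 14 had another tested probeset, and for 7 of these at least 1 had the opposite sign (TEK, SLC2A3, PDIA3, ATP5G1, RPL26, LUC7L3 and RBM25). Among the same 20, TEF, CEBPB, RPL10A and RBM25 kept their calls without each of the 13 drinkers in turn. The other 16 lost theirs without at least 4 of the drinkers. NDRG2, at the edge of the threshold, lost it without any 1 of the 13.

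Control transcripts that are read at both ends also differed between the drinkers, for EEF1A1 and GAPDH but not for ACTB. The array carries probesets for the 3′ and 5′ ends of control transcripts, and the 3′ minus 5′ difference on the log2 scale grows as RNA or its labelled copy is shorter. For EEF1A1, a transcript chosen for this after its values were seen, it was 1.03 to 1.39 in 7a drinkers (mean 1.23, SD 0.13) and 0.60 to 0.81 in 7b drinkers (mean 0.73, SD 0.09). The groups did not overlap, and a two-sided exact permutation test over the 1287 splits gave p = 0.000777, the smallest it can give, and 0.00233 after adjustment over 3 transcripts. Because EEF1A1 was chosen after its values were seen, this p-value describes the separation and is no test of it. For GAPDH the 3′ minus 5′ difference was 1.09 to 1.51 and 0.60 to 1.35, a difference of 0.36 (exact permutation p = 0.00855, adjusted 0.0128). For ACTB it was 0.93 to 1.60 and 0.76 to 1.71, a difference of 0.16 (exact permutation p = 0.319, adjusted 0.319), which was 0.32 without 7b drinker 42 (exact permutation p = 0.0263). That animal had the highest ACTB value of all 13, and by the study's table the lowest RNA integrity. Its GAPDH value of 1.35 was the highest of the 7b drinkers, but its EEF1A1 value of 0.69 lay within the low 7b range. Whether the EEF1A1 value follows RNA integrity was not tested. In controls the EEF1A1 value was 0.98 to 1.05 in 7a and 0.56 to 0.60 in 7b, while GAPDH and ACTB overlapped.

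With the EEF1A1 value as a covariate limma called 0 probesets, with 990 at an unadjusted p under 0.05, whereas with the ACTB value it called 1055. Because the EEF1A1 value does not overlap between the cohorts, its part in the 608 calls and cohort cannot be told apart in these 13 arrays. Without batch 8, which holds 3 of the 5 drinkers of 7b, 0 were called by limma among 7 against 2 animals, with 2426 at an unadjusted p under 0.05.

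**Figure D5:**
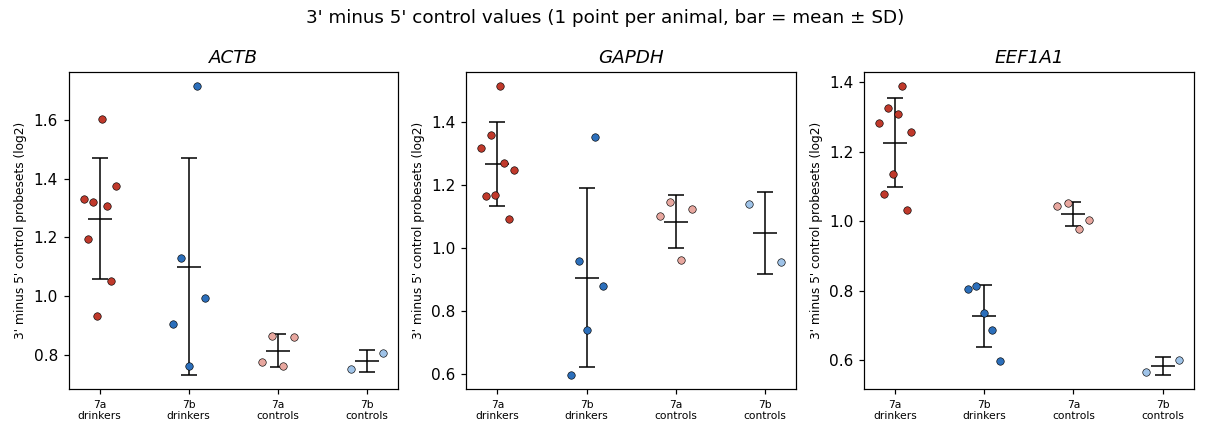
The 3′ minus 5′ difference on the log2 scale (y axis) of the ACTB, GAPDH and EEF1A1 control probesets in each animal of the 4 groups (x axis), with the mean and SD. The EEF1A1 values of 7a drinkers (1.03 to 1.39) lie above those of 7b drinkers (0.60 to 0.81), and those of the controls are separated the same way, while ACTB overlaps.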

How the data were processed

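Gene expression was measured with 43 Affymetrix Rhesus Macaque arrays, 1 per animal. The deposited values are log2 expression values that the authors obtained by RMA (affy package) over all arrays together, with no adjustment for batch. Groups were taken from the sample labels. Of 52865 probesets, 99 controls, 27449 without a gene symbol in the platform annotation and 361 with several were left out, as were probesets under 3.5 in at least 80% of the 43 arrays, leaving 23815. Drinkers of cohorts 7a and 7b were compared with limma 3.58.1 in R 4.3.3 (13 arrays, no covariate). The controls and the difference of contrasts came from group means over 19 arrays. Batches were recovered by setting the deposited values against the batch-adjusted values of the study's supplement for 912 probesets, since the adjustment is 1 straight line per probeset and batch. This gave 8 batches, numbered arbitrarily, and the adjusted values were used for nothing else. None of the columns holding sample values was left out.

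Named genes were the 10 largest differences in each direction among called probesets whose drinkers did not overlap (1 probeset per gene, the first 5 with every animal's value), and up to 4 members of a gene list with the smallest p. A list used the probeset of highest mean per gene. The members and lists were chosen with earlier results of these data known. On simulated data for 23815 probesets the fit recovered 78% of differences of 0.5 and 95% of differences of 1, with 8 false calls. The simulated noise was independent between probesets and held no batch and no shift in the 3′ minus 5′ values. These rates therefore say nothing about calls that depend on either. Precision is limited by the number of animals, and the limma p-values set each difference against the spread between animals. For the controls and the difference of contrasts, that spread was shared over all 19 arrays, drinkers included. It does not rest on the 2 controls of 7b alone. Set tests were not run. Alternatives covered filters, normalization, batch, the 3′ minus 5′ values, arrays in the fit and each animal left out.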

Additional observations from a re-analysis of the deposited data

Results flagged for a closer look

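Of the 120 groups of 4 to 8 animals looked at for the named genes, 9 held a single value that stood apart from the rest, where chance gives about 1 in 20 groups. Among 7a drinkers, animal 33 was low for HIRA (8.99, next 9.33), CDH20 (5.68, next 6.09) and TEF (10.22, next 10.37), animal 32 was high for SELENOT (9.32, next 9.03) and animal 35 was low for ZBTB16 (10.03, next 10.48). Among 7b drinkers, animal 41 was high for GAD2 (9.63, next 9.07) and animal 40 was low for SPCS2 (8.94, next 9.17). Among 7a controls, animal 25 was low for GAD2 (6.50, next 7.05) and animal 26 was low for ACTR10 (9.64, next 9.98). The 7a minus 7b difference itself differed between drinkers and controls on the log2 scale (limma) for TEK by 0.72 and for PVALB by 1.37 (both adjusted p = 0.0241). The same held for 3 genes picked after their values were seen, SLC39A8 (0.79, adjusted p = 0.0298), ITM2A (0.86, adjusted p = 0.0285) and EMSY (1.19, adjusted p = 0.0493, in 1 of its 7 probesets). Over all tested probesets, the calls of this contrast fell from 614 to 0 with batch as a block and to 31 without control animal 37.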

How the results depend on the processing

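The 608 calls in drinkers became 1047 in a fit of 19 arrays, 2786 in a fit of 43 arrays, 1055 with the ACTB covariate, 1283 with probesets without a symbol and 40 at an adjusted p of 0.01. They became 0 with batch as a block, 45 with that block in a fit of 19 arrays, 0 without batch 8 and 0 with the EEF1A1 covariate, the last 3 chosen after seeing the data, as was batch as a random block, which gave 651. Filters, normalization, 1 probeset per gene and another variance model kept the count within 1.5 times. Leaving out 1 drinker gave 236 to 663, and animals 29, 30, 31, 34, 36, 40, 41 and 43 each moved it by more than 1.5 times. The controls' 3075 became 1359 with the block and 1430 at an adjusted p of 0.01, and 799 to 2986 without 1 control. The 614 became 0 with the block and 31 to 692 without 1 control. The ACTB 3′ minus 5′ difference was 0.0782 to 0.316 and that of GAPDH 0.28 to 0.47 without 1 drinker. Differences changed sign for ITGAM (-0.10) and PVALB (-0.30) with the EEF1A1 covariate, and without 7b drinker 39 for MYL9 and ACTG2, which ranged from -0.439 to 0.00975 and from -0.639 to 0.0316 without 1 drinker. The causes were not tested. Of 33 list medians, 16 moved by more than the spread between animals with the EEF1A1 covariate (endothelium to 0.162, mural cells to -0.842), 5 without batch 8 (mural cells to -0.949, myelin to 0.577), 4 over all probesets of each gene (immediate early genes to 0.131, cytosolic ribosomal proteins to -0.117) and 3 with the batch block. With centering or quantile normalization none moved so far, but 6 medians of 0.04 or less in size as deposited changed sign. No paired analysis was possible because each animal has a number of its own.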

Other observations

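Further genes known from the blood vessel wall were among those higher in 7a drinkers. They were picked after their values were seen, so no count of them is evidence about vessels. The transcription factor genes ERG, MECOM and FOXF2 were higher by 0.63, 0.59 and 0.46 (limma, adjusted p = 0.0178, 0.0139 and 0.0474). KLF4, a flow-responsive transcription factor, was higher by 0.54 (adjusted p = 0.0264), and MFSD2A, the lipid transporter of the blood-brain barrier, by 0.41 (adjusted p = 0.0194). The metal transporter gene SLC39A8 was higher by 0.55 in drinkers (adjusted p = 0.00511) and differed by -0.25 in controls (adjusted p = 0.334), and ITM2A was higher by 0.40 (adjusted p = 0.0288) and differed by -0.47 in controls (adjusted p = 0.0646). For both, the cohort difference differed between drinkers and controls (adjusted p = 0.0298 and 0.0285). None of these was called with batch as a block, over 13 or over 19 arrays.

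EMSY, which encodes a partner of BRCA proteins in chromatin, had 7 tested probesets and called differences of both signs. A dim probeset was higher by 0.87 in 7a drinkers (mean 5.11 against 4.24, adjusted p = 0.0232), and a brighter one was lower by -0.41 (8.23 against 8.64, adjusted p = 0.016). Which transcripts these probesets read was not tested.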
